A study of Drosophila melanogaster with 2 samples.

Results

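The chemosensory genes of Drosophila melanogaster were examined for binding of Oaz, a zinc-finger protein, in whole embryos. They were the protein-coding genes whose symbol is Or, Gr, Ir or Obp followed by a number and a letter, the cytological naming of odorant receptors, gustatory receptors, ionotropic receptors and odorant-binding proteins. On the chromosome arms of dm6, 230 of 13968 protein-coding genes had such a symbol: 59 Or, 60 Gr, 60 Ir and 51 Obp genes. The embryos were 0 to 24 hours old and came from the transgenic strain Oaz-GFP, which expresses Oaz fused to eGFP, and the chromatin was precipitated with an antibody against GFP. Both samples were biological replicates of this 1 group, with the same strain and stage. The labels give no second condition, sex or tissue, and the fusion protein stands in for the native one.

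Odorant and gustatory receptors are membrane receptors of sensory neurons in the antenna, the maxillary palp, the taste organs and the larval head organs. Ionotropic receptors derive from the ionotropic glutamate receptors and detect acids, amines, temperature and humidity. Odorant-binding proteins are small secreted proteins of the fluid around these neurons, and several are also made elsewhere. Sensory neurons of the larva form in the embryo, and most of those of the adult form later, in the pupa. The rat relative of Oaz, ROAZ, is known as a partner of an Olf-1/EBF factor in the olfactory epithelium.

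Few chemosensory genes had an Oaz peak near their start. At 4 of the 230 genes, the optimal peak list of the authors had a summit no more than 1000 bp from an annotated start of transcription (1.74%, Wilson 95% interval 0.678 to 4.39), against 1946 of 13738 other protein-coding genes (14.2%, 13.6 to 14.8). Over all 13968 protein-coding genes the share was 14.0%. The 4 genes were Or88a, Gr32a, Obp99b and Obp83g. By family these were 1 of 59 Or genes (1.69%), 1 of 60 Gr genes (1.67%) and 2 of 51 Obp genes (3.92%). The Ir family had 0 of 60, for which a limit of 3 genes allows a share of up to 5% and the Wilson interval one of up to 6.02%. Intervals cover counting error over genes only, and neighbouring genes of a cluster are not independent. No test was made of this difference, because the gene set was chosen with results of these data known. The embryos were whole, so weak binding in many cells and binding in few cells cannot be told apart.

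The sequences at these summits are shown because they are the 4 optimal-list summits within 1000 bp of a chemosensory gene. Each window runs from 100 bases before to 100 after the summit, from the Release 6 genome (dm6), and capitals mark matches on either strand to any of 8 motifs given below.
Or88a, chr3R:14108696-14108896, plus strand: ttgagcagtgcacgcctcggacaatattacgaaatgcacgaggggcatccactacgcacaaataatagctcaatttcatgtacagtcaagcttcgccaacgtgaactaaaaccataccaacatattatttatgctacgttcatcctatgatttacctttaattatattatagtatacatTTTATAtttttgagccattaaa
Obp99b, chr3R:29717024-29717224, plus strand: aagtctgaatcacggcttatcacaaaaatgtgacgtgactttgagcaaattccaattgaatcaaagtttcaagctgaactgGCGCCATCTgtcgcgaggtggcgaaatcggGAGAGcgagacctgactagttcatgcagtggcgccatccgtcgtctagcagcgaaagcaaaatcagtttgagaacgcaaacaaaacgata
Gr32a, chr2L:11113127-11113327, plus strand: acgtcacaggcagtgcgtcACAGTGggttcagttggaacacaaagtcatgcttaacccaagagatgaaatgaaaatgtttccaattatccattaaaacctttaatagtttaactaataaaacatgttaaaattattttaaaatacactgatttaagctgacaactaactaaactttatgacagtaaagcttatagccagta
Obp83g, chr3R:6112350-6112550, plus strand: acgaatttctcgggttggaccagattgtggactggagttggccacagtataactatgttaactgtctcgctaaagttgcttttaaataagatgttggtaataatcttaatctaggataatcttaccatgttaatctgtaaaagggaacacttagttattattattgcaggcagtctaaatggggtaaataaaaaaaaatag

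The motifs were ACAGTG, the DNA replication-related element (DRE) TATCGATA, the M1BP site GGTCACACT, the TATA box letters TATAAA and the E-box CACGTG. The others were the letters GCACCC, the GAGA element GAGAG and, as the last, AGATGGCGC. That last one is the core of the motif of the insulator protein CTCF and was added after these sequences were seen. ACAGTG was in the window of Gr32a and in none of the other 3. The same letters were in 22.2% of all 2772 summit windows on the arms. TATAAA occurred at Or88a, where it stands as its reverse complement, and in 35.3% of all windows. GAGAG and the CTCF core occurred at Obp99b, and in 21.2% and 1.08% of all windows. The window of Obp83g held none of the 8. Over the 9 summits within 2000 bp of a chemosensory gene, 4 windows held ACAGTG and 5 held TATAAA. The GC content of the windows was 35.3% at Or88a, 46.8% at Obp99b, 31.8% at Gr32a and 33.8% at Obp83g, against a median of 35.3% over all windows (quartiles 31.3 and 41.3).

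Or88a had the strongest of these peaks. Or88a (FBgn0038203, 3R 14109445 to 14110823, plus strand) encodes an odorant receptor of trichoid sensilla that responds to odours of other flies. Its peak at 3R 14108631 to 14108960 had a signal of 161, in the units of the authors' peak caller, whose scale is not stated, and ranked 713 among 2846 peaks. The signal was 82.8 in replicate 1 and 79.3 in replicate 2, and the peak was in the thresholded list of both. A signal from both replicates together is on another scale than that of a single one. The global irreproducible discovery rate (IDR), which is low where a peak ranks consistently high in repeated measurements, was 0.000196. An IDR from the list of a single replicate cannot measure agreement between the biological replicates. The summit lay between genes, 649 bp upstream of the Or88a start, but 475 bp upstream of the start of CG12402 on the other side. The peak was thus nearer to CG12402 than to the receptor gene.

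Obp99b was the other gene with a peak in both replicates. Obp99b (FBgn0039685, 3R 29716254 to 29716896, minus strand), also known as tsx, encodes an odorant-binding protein. The peak at 3R 29716959 to 29717288 had a signal of 119 and rank 1155, with 53.6 in replicate 1 and 61.6 in replicate 2. Its IDR was 0.000928. The summit lay 228 bp upstream of the Obp99b start, which was the nearest protein-coding start. The next gene of its cluster, Obp99d, starts 2322 bp from an Obp99b start.

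The peaks of Gr32a and Obp83g were among the weakest of the optimal list and in neither replicate's thresholded list. Gr32a (FBgn0041246, 2L 11114014 to 11115823, plus strand) encodes a gustatory receptor for bitter compounds and male pheromones. Its peak at 2L 11113062 to 11113391 had a signal of 58.1, rank 2696 and an IDR of 0.00546. In the longer ranked lists of the replicates the signal was 38.6 in replicate 1 and 27.4 in replicate 2, with IDRs of 0.0670 and 0.568. The summit was 787 bp upstream of Gr32a and 166 bp upstream of Idua. Obp83g (FBgn0046875, 3R 6111671 to 6112302, minus strand) had a peak at 3R 6112285 to 6112614 with a signal of 61.7, rank 2637 and an IDR of 0.00623. Its ranked-list signal was 38.3 in replicate 1 and 26.3 in replicate 2, with IDRs of 0.279 and 0.774. The summit was 148 bp upstream of Obp83g, and no protein-coding start was nearer. The neighbour Obp83ef starts 1416 bp from the same summit. In both replicates, these 2 peaks lay below those of Or88a and Obp99b.

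**Figure D1:**
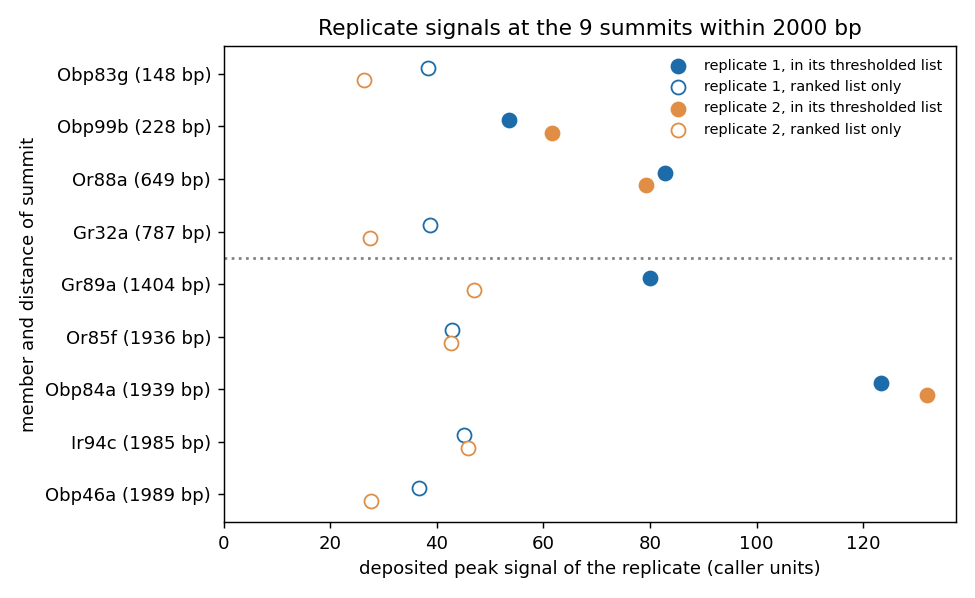
Deposited peak signal in replicate 1 and replicate 2 (x axis, units of the authors' peak caller) for the 9 optimal-list summits within 2000 bp of a chemosensory gene, ordered by distance, with the nearest such gene named (y axis). Filled points are in the replicate's thresholded list and open points only in its longer ranked list; above the dotted line, within 1000 bp, Obp99b and Or88a are filled in both replicates, and Obp83g and Gr32a in neither.

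The distance of 1000 bp fell in a gap. Just inside it were Or88a at 649 bp and Gr32a at 787 bp, and just outside it were Gr89a at 1404 bp and Obp83ef at 1416 bp. Between 1000 and 2000 bp lay summits of 6 further genes. The bitter receptor gene Gr89a had a peak of signal 125 at 3R 16497390 to 16497719, downstream of its start and beyond its end, with 80.0 in replicate 1 and 47.0 in replicate 2. It was in the thresholded list of replicate 1 and not in that of replicate 2. The peak nearest to Obp84a, with a signal of 263 and rank 304, was the strongest of the 9, and was in the thresholded lists of both replicates (123 and 132 in replicates 1 and 2). Its summit lay 1939 bp from Obp84a and 119 bp from a start of CG1227, in an untranslated exon of that gene. The peak 1936 bp from Or85f had a signal of 84.8 and lay 73 bp from the start of CG34117. The peak 1985 bp from Ir94c had a signal of 92.3 and lay in an intron of CG42390. The peak 1989 bp from Obp46a had a signal of 33.0 and lay 79 bp from the start of CG12909. It overlaps a stronger peak with a signal of 60.6 and an IDR of 0.00564. These last 3 peaks were in neither replicate's thresholded list. In the ranked lists the peak near Or85f had 42.7 in both replicates, that near Ir94c 45.2 in replicate 1 and 45.9 in replicate 2, and the strongest overlapping that near Obp46a 36.6 in replicate 1 and 27.6 in replicate 2. Obp83ef shares the peak of Obp83g. At 5 of the 9 summits, then, another gene's start was within 500 bp and nearer than the chemosensory one, namely CG12402, Idua, CG34117, CG1227 and CG12909.

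The peak near Gr89a is shown for comparison with that of Obp99b, since both windows hold the CTCF core, here as its reverse complement. The window of Gr89a also holds ACAGTG, on the same strand as that match.
Gr89a, chr3R:16497455-16497655, plus strand: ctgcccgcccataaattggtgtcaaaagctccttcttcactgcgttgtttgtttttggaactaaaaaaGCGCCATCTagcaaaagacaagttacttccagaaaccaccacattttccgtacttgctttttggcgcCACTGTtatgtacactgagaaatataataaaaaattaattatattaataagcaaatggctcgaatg

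A single summit of the optimal list lay within the body of any of the 230 genes. Summits in the bodies of other genes were not counted for comparison. Chemosensory genes are also shorter, with a median length of 1498.5 bp against 2190 bp in other genes. The summit was in an intron of Ir41a, a receptor gene for polyamines that is 104437 bp long. Its peak was at 2R 4942347 to 4942676, and the nearest start, 24993 bp from the summit, was that of Ir41a. The signal was 66.8 and the rank 2471. The thresholded list of replicate 1 held the peak with a signal of 43.2, and that of replicate 2 did not hold it.

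With growing distance the families parted. Within 5000 bp a summit was found for 30 of the 230 chemosensory genes (13.0%), against 29.3% of other genes, and within 20000 bp for 112 (48.7%), against 62.8%. Odorant receptors stood farthest from Oaz peaks. Only 2 of the 59 Or genes had a summit within 5000 bp (3.39%) and 15 within 20000 bp (25.4%). The median distance to the nearest summit was 41479 bp for Or genes, 20476 bp for Ir genes, 19285 bp for Gr genes and 13353 bp for Obp genes, against 12652 bp for other protein-coding genes. Obp genes passed other protein-coding genes at the widest distance, with 37 of 51 (72.5%) within 20000 bp, although their median distance was not shorter. Another chemosensory gene started within 5000 bp of 31 of the 51. Neighbours can share a nearest summit, so the 37 are not separate cases. The largest distance was 330718 bp, at Ir40a, a receptor gene known for humidity sensing.

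**Figure D2:**
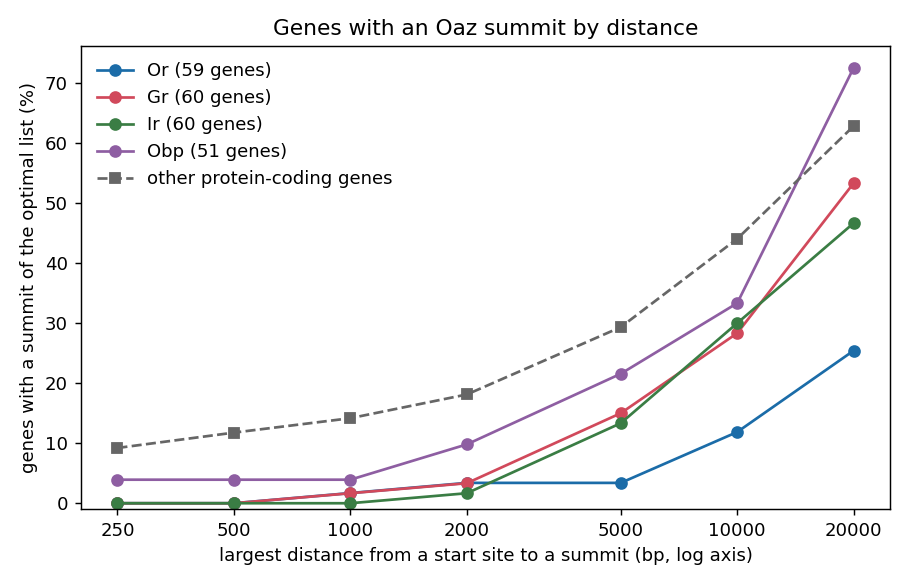
Percentage of genes with a summit of the optimal list (y axis) within the given distance of a start site in bp (x axis, log scale) for the Or, Gr, Ir and Obp families (solid lines) and other protein-coding genes (dashed line). The 4 families lie at 0 to 3.92% at 1000 bp, below 14.2% of other genes, and at 20000 bp the Or family is lowest with 25.4% while the Obp family, at 72.5%, is above other genes.

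Many chemosensory genes lie in tandem clusters, and a summit near 1 of them can be near its neighbours too. Another member started within 5000 bp of 104 of the 230 genes (45.2%), which formed 36 clusters of 2 to 6 genes. The largest, at 3L 4026769 to 4037575, held Gr64a to Gr64f, receptors for sugars. No optimal-list summit lay within the span of any of the 36 clusters, which covered 181289 bp, and the median distance from a cluster to the nearest summit was 17184 bp. The spans end at the outermost gene ends. The summits of Obp83g and Obp99b lay only 148 bp and 228 bp outside the spans of their clusters. How many of the 2772 summits on the arms would be expected in such a span was not worked out. The nearest other protein-coding start was a median 1993 bp away for chemosensory genes and 1363 bp for other genes. Among chemosensory genes with another start within 1000 bp, 1 of 57 had a summit (1.75%), and among those without one 3 of 173 (1.73%). Among other protein-coding genes these shares were 21.8% of 5928 genes and 8.35% of 7810. The share was lower in chemosensory genes in both classes, but the classes are unlike. For a chemosensory gene the other start can be that of another chemosensory gene, as for Or10a and Gr10a, which share a start. Whether spacing bears on the share was not tested. A single start was annotated for 209 of the 230 chemosensory genes (90.9%), against 73.2% of other genes. By arm, the shares in chemosensory and in other genes were 3 of 54 (5.56%) and 13.8% on 3R, 1 of 33 (3.03%) and 14.2% on 2L, 0 of 75 and 14.5% on 2R, 0 of 37 and 15.1% on 3L, and 0 of 31 and 13.7% on X.

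Below the threshold, a summit near a start was common to chemosensory and other genes. The ranked list is long, so such a summit alone does not set a gene apart. In the ranked list that holds all optimal peaks, with 150275 entries, 213 of the 230 genes (92.6%) had some summit within 1000 bp of a start, against 90.5% of other genes. The 17 genes with none were 4 Or, 3 Gr, 5 Ir and 5 Obp genes. The highest such signal had a median of 30.4 over these 213 genes (range 7.41 to 161), against 36.7 over 12430 other genes. The medians were 34.1 for Gr, 32.5 for Ir, 29.5 for Obp and 29.5 for Or genes. A signal above the median of other genes was found at 67 of the 213 (31.5%), and a signal of 50 or more at 16 of the 230 (6.96%), against 24.0% of other genes. The upper part of the range thus differed more than the middle. The 4 genes above were the chemosensory genes with an IDR of 0.01 or less. The lowest IDR at a gene had a median of 0.532 in chemosensory genes and 0.414 in other genes.

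Some genes came close to an IDR of 0.01. That value is used here for description and is not the cut of the optimal list. Of other protein-coding genes, 1985 had an IDR of 0.01 or less and 1946 an optimal-list summit. Or46a, at 0.0157 with a signal of 53.8, Obp57d, at 0.0208 with 55.4, and Gr39b, at 0.0285 with 57.6, had an IDR of 0.05 or less without reaching 0.01. With the 4 genes above this made 7 of 230 (3.04%), against 19.6% of other genes. Signals close to or above that of Gr32a were also found where the IDR was higher. Obp83cd had 66.8 (IDR 0.0572), Ir67c 59.3 (IDR 0.581) and Gr28a 58.2 (IDR 0.136). Of lower signal were Ir60e with 54.1 (IDR 0.184), Ir48b with 52.8 (IDR 0.0680) and Or85a with 49.3 (IDR 0.0765). Obp57d was named after its values were seen, the others as the 3 highest of their family. Obp57d shares its annotated start with Cpr57A, and its ranked summit lay 990 bp from that start.

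**Figure D3:**
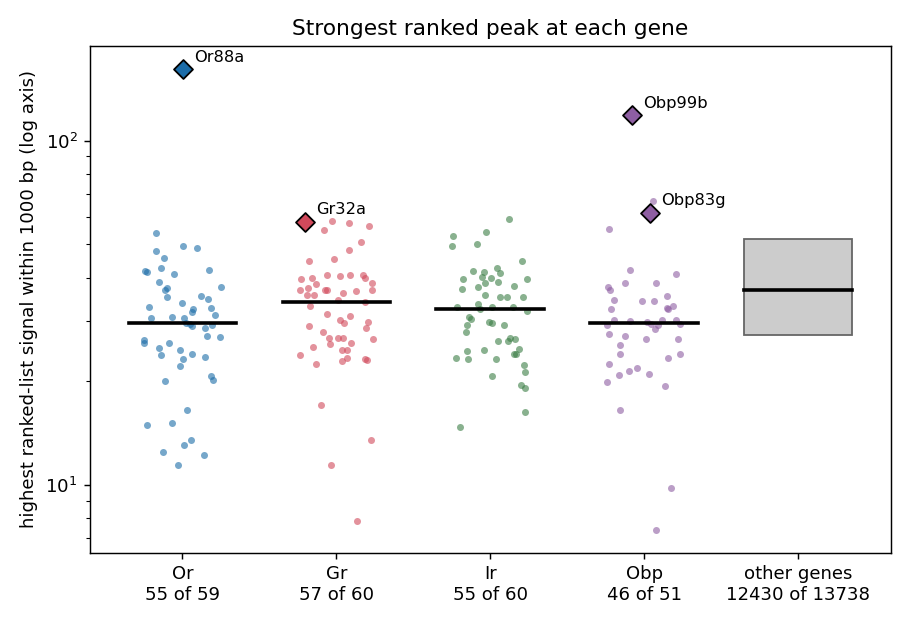
Highest ranked-list signal within 1000 bp of a start site (y axis, log scale, units of the authors' peak caller), 1 point per chemosensory gene by family, with the number of genes that had such a summit under each name. Diamonds are the 4 genes with an optimal-list summit, lines are medians and the grey box spans the quartiles of other genes (27.2 to 51.7); Or88a at 161 and Obp99b at 119 stand above all other chemosensory genes.

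Across chemosensory genes, the highest ranked signals of the replicates were only weakly correlated. The highest summit was taken in each replicate on its own, so the values of a gene can come from different peaks. No such correlation was worked out for other genes. A ranked summit within 1000 bp was listed for 212 of 230 chemosensory genes in replicate 1 and for 165 in replicate 2, against 11816 and 11200 of 13738 other genes. The list of replicate 2 is shorter, with 81899 entries against 130607 in replicate 1. Over the 157 chemosensory genes present in both, the median signal was 20.3 in replicate 1 and 15.8 in replicate 2, and replicate 1 was higher at 123. Spearman's rho between the replicates was 0.119 across these 157 genes, which are not independent replicates and in part share peaks. By family it lay between 0.000750 for Or and 0.287 for Gr genes. Over the 153 genes left without the 4 that had an optimal-list summit, rho was 0.0503. Within 1000 bp of a start, a signal of 50 or more was reached in either replicate by Or88a and Obp99b and by no other chemosensory gene. That was 0.870% of the 230 genes in each replicate, against 10.8% of other genes in replicate 1 and 8.23% in replicate 2.

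The other well-known members had no optimal-list summit within 1000 bp. For scale, the highest ranked-list signal within 1000 bp had a median of 36.7 over other protein-coding genes. The ranked-list signal was 37.2 at Or22a and 37.5 at Or42b, receptors for fruit esters, 36.9 at Or83a, and 48.7 at Or67d, the receptor for the male pheromone cis-vaccenyl acetate. Orco, the co-receptor of Or proteins, whose name puts it outside the rule, had 52.0. Of the carbon dioxide receptors, Gr21a had 50.6 and Gr63a 22.5. The sugar receptor gene Gr5a had 36.8 and the bitter receptor gene Gr66a 23.8. The ionotropic co-receptor genes Ir8a, Ir25a and Ir76b had 29.1, 37.0 and 35.5. Obp83a, made in the antenna, had 23.4. None of these members had an IDR of 0.05 or less. Orco is not a member, and its IDR is not given here.

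Grouped by use, most classes were too small to be set apart from all protein-coding genes. Of 25 Or genes expressed in the larval dorsal organ, the nose of the larva, 0 had a summit, which allows a share of up to 12% by the limit of 3 genes and 13.3% by the Wilson interval. Their median ranked signal was 26.6. In a list of 7 receptors drawn up for trichoid sensilla, Or83c among them, 1 had a summit, Or88a (14.3%, Wilson 95% interval 2.57 to 51.3). Among 11 bitter receptors there was 1, Gr32a (9.09%, 1.62 to 37.7). The share of all protein-coding genes, 14.0%, lies within both intervals. Sugar receptors had 0 of 9 (Wilson upper limit 29.9%), carbon dioxide receptors 0 of 2 (65.8%) and antennal ionotropic receptors 0 of 17 (18.4%), and these limits lie above 14.0% as well.

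Other genes of the pathway were compared by lists. Of 16 co-receptor and odorant-handling genes outside the symbol rule, among them Orco, lush and Snmp1, 0 had a summit within 1000 bp (Wilson upper limit 19.4%), with a median ranked signal of 26.0. Of 16 ion channel genes with sensory roles, 4 had one (25%, 10.2 to 49.5). These were pyx, a heat-activated TRP channel, with a signal of 133, wtrw, a TRP channel for moist air, with 124, ppk29, a pheromone-sensing sodium channel of the DEG/ENaC family, with 94.1, and nan, a TRP channel of hearing, with 69.0. The summit of pyx was nearer to CG33229 (168 bp) than to pyx (615 bp), and that of ppk29 nearer to eEF5 (23 bp) than to ppk29 (684 bp). The summit of wtrw also lay in an intron of mRpS9, a mitochondrial ribosomal protein gene. Both replicates' thresholded lists held the peak of pyx, at 78.9 in replicate 1 and 57.5 in replicate 2. The peaks of wtrw (79.8) and ppk29 (42.5) were in the list of replicate 2 and not in that of replicate 1, and that of nan was in neither. Of 28 transcription factor genes of chemosensory neurons and organs, 2 had a summit (7.14%, 1.98 to 22.6). Dll, a homeodomain gene of antenna and limb, had the stronger, with 470 and rank 92, at 209 in replicate 1 and 258 in replicate 2, and 104 bp from its start. Xbp1, a factor of the unfolded protein response, had 196, at 120 in replicate 1 and 82.5 in replicate 2, and 100 bp from its start. The share of all protein-coding genes, 14.0%, lies within the intervals of all 3 lists.

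Chemosensory promoters also differed in sequence from those of other genes. In the 300 bases from 250 before to 50 after each gene's start, the DRE was in 1 of 230 chemosensory promoters (0.435%), against 9.51% of other promoters, and the M1BP site in 0 of 230, against 6.14%. Both are core promoter elements known from broadly expressed genes. TATAAA was in 57.8% against 45.6%, but unevenly, with 78.0% of Or, 70.6% of Obp, 55% of Ir and 30% of Gr promoters. GAGAG was in 20.9% against 29.8% and ACAGTG in 9.57% against 14.0%. GCACCC was in 6.96% against 5.29%, and CACGTG in 3.48% against 4.21%. Median GC content was 39.3% in chemosensory and 38.0% in other promoters. Of the 229 chemosensory genes without the DRE 1.75% had a summit, against 13.6% of other genes without it and 19.4% of those with it. Of the 230 without the M1BP site 1.74% had one, against 13.8% of other genes without it and 19.7% of those with it. Nearly all chemosensory genes lack both, so these shares nearly repeat the comparison of all genes. Whether either motif bears on the share was not tested. Matches are of letters on either strand, and none was tested.

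**Figure D4:**
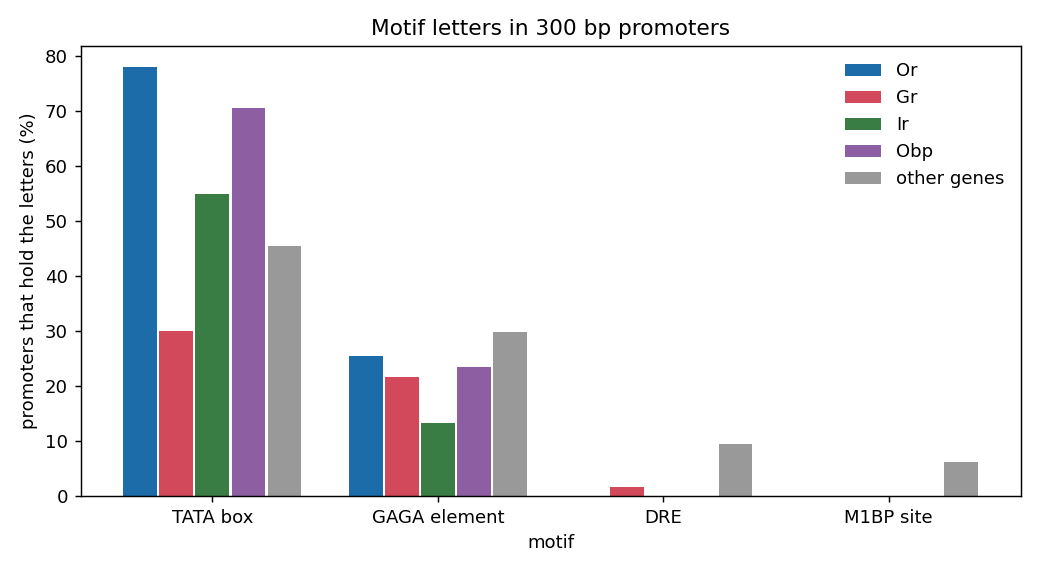
Percentage of 300 bp promoters that hold the letters of each motif (y axis) for the TATA box, GAGA element, DRE and M1BP site (x axis), with bars for the Or, Gr, Ir and Obp families and for other protein-coding genes. The TATA box letters reach 78.0% in Or and 30% in Gr promoters, and the DRE is in 1 chemosensory promoter and the M1BP site in none.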

How the data were processed

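Chromatin immunoprecipitation with sequencing was done on 2 biological replicates in 1 group. Per the labels' descriptions, fragments were sonicated to 200 to 800 bp and assigned to dm6. Which aligner and caller were used is not given in the sources used here, and the read depth is unknown. The 8 deposited peak lists (4 of both replicates, 2 per replicate) came from the alignments of the replicates and a control, per the deposited description. Peaks carry a deposited signal set by the authors' caller, an IDR score and the summit offset. The ranked lists add the deposited −log10 of the global IDR. Control reads were not analysed here.

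Genes and starts came from Ensembl release 115 on the Release 6 genome, in which 0 optimal peaks passed an arm end. Coordinates are 1-based. A gene was counted where a summit lay within 1000 bp of any annotated start. Clusters joined members with starts within 5000 bp. All results are counts, medians, rank correlations and Wilson 95% intervals, with no test. Beside a count of 0, the share that 3 genes would make is also given where named. Obp28a, listed under an older name among genes outside the symbol rule, was taken out of that list. The search was tested on simulated peaks. The gene set, lists and motifs were chosen with earlier results of these data known. Named were genes with a summit of a thresholded list within 2000 bp or inside, the 3 highest of each family in the ranked list, list genes with a summit, nearer genes and well-known members. Of the listed symbols, 1 was not matched. Tables were made in Python 3.11.15 with pandas 2.3.3 and numpy 2.4.6, intervals with scipy 1.17.1 and figures with matplotlib 3.10.9.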

Additional observations from a re-analysis of the deposited data

How the results depend on the processing

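The share of chemosensory genes with a summit was below that of other genes under all 10 alternatives, at 0.870 to 4.35% against 8.16 to 18.1%. The 4 genes became 2 in the list of either replicate alone, at an IDR of 0.001 or less, with a window of 500 bp, and with only the nearest start counted, and 10 with a window of 2000 bp. Or88a and Obp99b were kept in both replicate lists and at an IDR of 0.001. Obp83g and Obp99b were kept at 500 bp and with the nearest start. The Or count became 0 at 500 bp and with the nearest start, and 2 at 2000 bp. The Gr count became 0 in both replicate lists, at an IDR of 0.001, at 500 bp and with the nearest start, and 2 at 2000 bp. The Ir count became 1 at 2000 bp. The Obp count became 1 in the conservative list, in both replicate lists and at an IDR of 0.001, and 5 at 2000 bp. The conservative list lost Obp83g.

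The 4 ion channel genes became 1 at an IDR of 0.001 and at 500 bp, 2 with the nearest start, and 1 to 3 in the replicate lists. The 2 transcription factor genes became 4 at 2000 bp. The single summit inside a chemosensory gene became 0 in the conservative list and at an IDR of 0.001, and ranged from 0 to 1 in the replicate lists. The median ranked signal of chemosensory genes was 15.8 to 19.3 in single replicates, 26.4 at 500 bp and 37.0 at 2000 bp, against 18.8 to 23.2, 32.6 and 42.3 in other genes. The other alternatives (gene ends only, any overlap, the strongest of overlapping peaks, the other ranked list) changed no count of these genes by over 1.5 times and moved neither median beyond the spread of the replicates. The cause of these shifts was not tested. No paired analysis was possible because there was 1 group. Counts this small, at 0 to 2 genes per family, limit any comparison between families.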

Other observations

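The core of the CTCF motif, AGATGGCGC, was in 2 of the 9 summit windows within 2000 bp of a chemosensory gene, those at Obp99b and Gr89a, and in 30 of all 2772 (1.08%). It was in 1 of 230 chemosensory promoters (0.435%), against 55 of 13738 other promoters. That promoter was the one of Obp99b, and the match is the same site as in its summit window. The motif was added after the summit sequences were seen, so the count is a description.

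Obp56f had summits in lists other than the optimal one. The conservative list held a peak at 2R 19714749 to 19715078 with a signal of 47.8, its summit 1519 bp from the start of Obp56f and 838 bp from that of CG8517, and an overlapping one with a signal of 5.28, 1772 bp from Obp56f. The thresholded list of replicate 1 held a peak there with a signal of 48.7, and that of replicate 2 held none.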
